A study of Mus musculus with 4 samples.

Results

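Defensin genes were followed through a strand-specific RNA-seq survey of the fetal mouse gonad. The genes were taken by name, as every gene row whose symbol begins with Defa or Defb, which gave 55 of 20373 rows, 14 of them alpha-defensins (Defa) and 41 beta-defensins (Defb). Members were chosen by name alone, but the family itself was selected on its signal in these same 4 libraries, so the levels below are a description and no test of them is independent support. Cells came from fetuses of CF1 mothers and TgOG2 fathers at 15.5 days post coitum (dpc), and all 4 groups carry that cross. The TgOG2 transgene drives EGFP from the Oct4 promoter in germ cells. Gonads were sorted by flow cytometry into male germ cells (GFP-positive), female germ cells (GFP-positive), male gonadal somatic cells (GFP-negative) and female gonadal somatic cells (GFP-negative), with 1 library each. The somatic fractions are therefore whatever in the gonad did not fluoresce, and hold several cell types. Nothing in the labels says how many fetuses went into a library.

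Defensins are small secreted cationic peptides that damage microbial membranes, folded around disulfide bonds between conserved cysteines. In mice, alpha-defensins (cryptdins) are made chiefly by Paneth cells of the small intestine. Beta-defensins are made by epithelia of skin, airway and kidney, and many of them by the epididymis of the adult male, where they coat sperm. The fetal gonad is not a classical site of either family, apart from Defb19, also named Tdl (testis-specific defensin-like), which has been described in Sertoli cells, the supporting cells of the testis cords.

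The coding sequences of 6 members are shown because they carry the results below. Defb19, Defb36, Defb42, Defb20 and Defb7 gave the highest signals of the family, and Defa24 stands for the alpha-defensins, which gave almost none. Each is the spliced coding strand, 5′ to 3′, from GENCODE M21 (GRCm38), and the capitals mark in-frame cysteine codons.
Defb19: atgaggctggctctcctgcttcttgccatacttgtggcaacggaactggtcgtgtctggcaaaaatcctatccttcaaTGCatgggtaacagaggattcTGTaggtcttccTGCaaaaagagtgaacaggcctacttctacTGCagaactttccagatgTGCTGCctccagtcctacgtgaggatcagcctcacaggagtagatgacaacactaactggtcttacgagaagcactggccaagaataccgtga
Defb36: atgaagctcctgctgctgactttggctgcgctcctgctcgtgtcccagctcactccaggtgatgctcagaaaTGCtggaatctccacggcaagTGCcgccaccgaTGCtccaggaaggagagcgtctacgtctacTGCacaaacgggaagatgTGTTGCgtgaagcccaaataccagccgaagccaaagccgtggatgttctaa
Defb42: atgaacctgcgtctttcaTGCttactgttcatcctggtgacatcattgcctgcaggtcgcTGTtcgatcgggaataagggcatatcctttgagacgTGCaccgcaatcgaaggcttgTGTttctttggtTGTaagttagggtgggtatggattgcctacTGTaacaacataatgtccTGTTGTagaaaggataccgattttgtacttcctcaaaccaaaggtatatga
Defb20: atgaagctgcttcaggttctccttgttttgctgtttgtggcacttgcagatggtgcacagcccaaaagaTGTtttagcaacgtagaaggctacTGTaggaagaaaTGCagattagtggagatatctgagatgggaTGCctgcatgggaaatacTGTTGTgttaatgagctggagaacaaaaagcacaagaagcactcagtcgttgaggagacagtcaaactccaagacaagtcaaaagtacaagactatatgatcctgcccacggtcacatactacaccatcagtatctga
Defb7: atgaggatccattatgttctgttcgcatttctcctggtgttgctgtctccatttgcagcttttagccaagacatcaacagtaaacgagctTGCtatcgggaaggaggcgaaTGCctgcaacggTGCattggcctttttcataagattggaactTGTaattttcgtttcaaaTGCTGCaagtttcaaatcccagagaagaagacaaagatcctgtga
Defa24: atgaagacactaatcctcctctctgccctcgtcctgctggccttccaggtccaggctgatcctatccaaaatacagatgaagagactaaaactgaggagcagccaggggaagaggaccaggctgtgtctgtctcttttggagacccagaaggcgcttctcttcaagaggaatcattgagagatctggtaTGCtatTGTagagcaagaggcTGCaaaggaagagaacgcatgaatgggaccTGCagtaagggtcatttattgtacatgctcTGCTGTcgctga

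In GRCm38 these coding sequences span chr2:152576163-152580247 on the minus strand for Defb19, chr2:152604488-152612626 on the plus strand for Defb36, and chr14:63047564-63048400 on the plus strand for Defb42. The other 3 lie on plus strands, at chr2:152477123-152479595 for Defb20, chr8:19495108-19497696 for Defb7 and chr8:21734537-21735377 for Defa24. Each is split over 2 coding exons. Counted in codons from one cysteine to the next, the last 6 cysteines of Defb19, Defb36, Defb42 and Defb7 follow steps of 7, 4, 10, 6 and 1. Defb20 differs in its first step, which is 8, and Defb42 has 8 cysteine codons in all. In Defa24 the steps are 2, 5, 10, 10 and 1. Over the family, 28 of the 41 beta-defensins had steps of 7, then 4 or 5, 10, 6 or 7, and 1, against 0 of the 10 alpha-defensins with a coding sequence in that annotation, and all 10 alpha-defensins began with 2, 5 and 10, as 0 of the 41 beta-defensins did. The cysteine layout thus differed between genes named alpha and beta.

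The values are a gene-level signal that the authors had scaled before deposit. It is given here per 1000000 of scaled library total (SPM), and not per gene length unless per kilobase (kb) is stated. A part of the low values lies at multiples of a spacing that differs between libraries. This step was used as an estimate of what 1 sequenced fragment adds, although many low values lie off it and some members have values below 1 spacing, so fragment numbers are estimates. It puts the depth at 24.8, 17.5, 17.6 and 24.1 M fragments (M, 1000000) in male and female germ cells and in male and female somatic cells, in that order. A gene was counted as carrying signal at 3 fragments or more, which is 0.113, 0.179, 0.181 and 0.120 SPM in the same order of libraries, with 0.5 of a signal unit allowed for rounding. Under that allowance Defb19 in female germ cells, at 0.177 SPM, was counted. The sort can be read from 4 germ cell markers (Ddx4, Dazl, Pou5f1, Mov10l1), whose signals summed to 2710 SPM in the male and 2370 in the female germ cells, and 17.7 in the male and 4.80 in the female somatic cells. In these bulk libraries fewer cells of a type and less RNA per cell cannot be told apart.

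Most defensin genes had no detectable signal at this depth. Of the 55, 30 were listed at 0 in every library, 9 were listed in some library but stayed under 3 fragments in all, and 16 reached 3 fragments somewhere. All 16 were beta-defensins. The count per library was 14 in the male and 1 in the female germ cells, and 3 in the male and 6 in the female somatic cells. Over all gene rows, 85.4%, 73.8%, 74.7% and 75.7% of rows reached 3 fragments in the same order. The defensin share was below that of all rows in each library. With male germ cells taken down to the smallest depth the expected count there was 12.5. Defensin rows are short, with a median length of 390 bases against 2442 over all rows, and a short gene yields fewer fragments at a given level. Among the 3115 rows within the defensins' length range of 173 to 1005 bases, 47.7% reached 3 fragments in the male and 35.5% in the female germ cells, and 34.1% in the male and 35.2% in the female somatic cells. Those rows share the range but had a median length of 882 bases. They are thus longer than the defensins, and shares over them do not remove the effect of length.

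**Figure D1:**
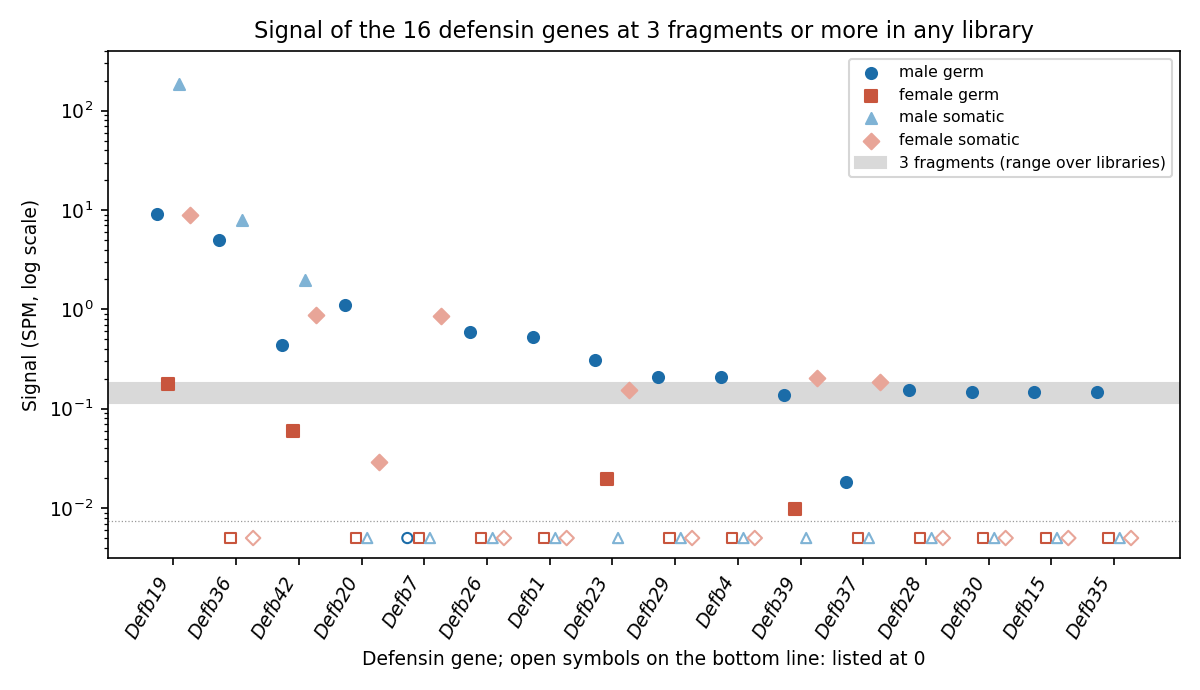
Signal (SPM, log scale) of the 16 defensin genes that reached 3 fragments in any library, 1 point per library, with genes listed at 0 as open symbols on the bottom line and the grey band giving 3 fragments over the 4 libraries. Defb19 in male somatic cells stands highest at 185.9 SPM. Most genes to the right lie within or above the band in male germ cells and at 0 in the other libraries.

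The signal of the family was mostly 1 gene. Summed over all 55 members it was 18.7 SPM in the male and 0.266 in the female germ cells, and 195.9 in the male and 11.3 in the female somatic cells, and Defb19 made up 49.1%, 66.7%, 94.9% and 78.6% of these sums. Without Defb19 the sums were 9.54, 0.0887, 10.03 and 2.42 SPM in the same order, so that male germ and male somatic cells then lay close together. Defb19, Defb36 and Defb42 are the 3 members highest in male somatic cells, so leaving all of them out lowers that library by construction. Without them male germ cells had 4.12 SPM over the remaining 52 genes, female germ cells 0.0296, male somatic cells 0.108 and female somatic cells 1.55.

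Defb19 lies on chromosome 2 from 152401821 to 152406048 (mm9, minus strand). Its signal was 9.20 SPM in the male and 0.177 in the female germ cells, and 185.9 in the male and 8.92 in the female somatic cells. Male somatic cells were far above the other 3 libraries, and female germ cells sat at 3 fragments. Per kb, 469 SPM in male somatic cells ranked 70 among all rows there, at percentile 99.7 of all rows, while 23.2 SPM per kb in male germ cells was at percentile 83.9. Between male and female somatic cells the ratio was 20.8-fold (exact 95% interval 18.2 to 23.95, counting error only, with 1 library a side). Between male and female germ cells it was 51.8-fold, with a wide interval of 17.4 to 251 because the female side rests on 3 fragments. Male germ cells held 4.95% of the male somatic signal (20.2-fold lower, 17.7 to 23.1), and female germ cells were 50.3-fold lower than female somatic cells (16.8 to 243).

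Summed Sertoli cell markers were also highest in male somatic cells. The 5 markers (Amh, Sox9, Dhh, Cldn11, Aard) summed to 18.1 SPM in the male and 5.61 in the female germ cells, and 479 in the male and 38.9 in the female somatic cells, with none at 0 in any library. Male germ cells held 3.19% of the male somatic signal for Amh, the hormone that regresses the Müllerian ducts, 2.56% for Dhh, 3.91% for Aard, 8.17% for Cldn11 and 14.8% for Sox9. Markers of fetal Leydig cells, the androgen-making cells between the cords, summed to 38.5, 0.552, 712 and 60.1 SPM in the same order of libraries. Their male germ share was 5.61% for Cyp17a1, 5.67% for Cyp11a1, 4.69% for Hsd3b1 and 6.27% for Insl3. The share of Defb19, 4.95%, falls within both ranges, and the part of somatic cells in the male germ value was not tested. In female somatic cells, where Defb19 had 8.92 SPM, the Sertoli markers had 0.379 SPM (Amh), 0.253 (Dhh), 7.76 (Sox9), 9.27 (Cldn11) and 21.2 (Aard), and the pregranulosa markers Fst, Foxl2, Wnt4 and Bmp2 summed to 97.4 SPM in male and 888 in female somatic cells.

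Defb36 lies 24.01 kb from Defb19 in the same cluster, from 152430062 to 152438465 on the plus strand, and had another pattern. Its signal was 4.97 SPM in male germ cells and 7.95 in male somatic cells, and it was listed at 0 in female germ and female somatic cells. Both male libraries were high and both female libraries empty, and the male values rest on 132 fragments each. Against 3 fragments in the empty library, Defb36 was 27.7-fold higher in male than female germ cells, with a lower interval limit of 22.3. It was 66.2-fold higher in male than female somatic cells, with a lower limit of 53.1. Male germ cells held 62.5% of the male somatic signal (a ratio of 0.625, 0.488 to 0.803), which is above the share of each of the 9 Sertoli and Leydig markers. It is not above that of every somatic marker. Among macrophage markers the share was 127% for Cd68 and 183% for Fcgr1. For Csf1r, Emr1 and Cx3cr1 it was 7.99%, 22.4% and 16.1%. The part of somatic cells in the male germ value of Defb36 was not tested. Per kb its level was 10.6 SPM in male germ cells and 16.9 in male somatic cells, percentiles 70.9 and 75.8 of all rows.

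**Figure D2:**
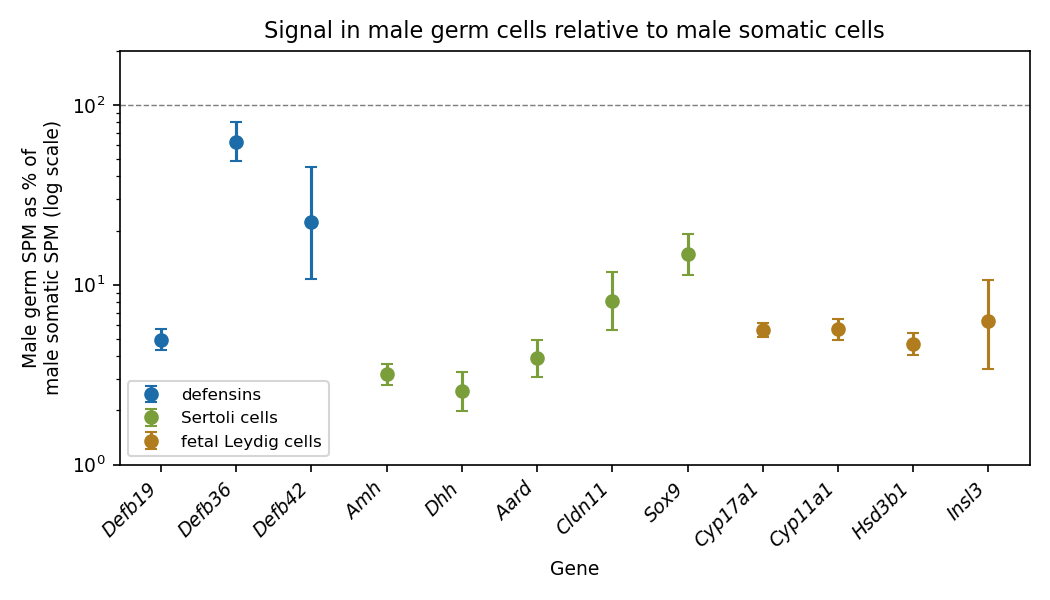
Male germ signal as a percentage of male somatic signal (log scale) for 3 defensins and for markers of Sertoli and fetal Leydig cells, with exact 95% intervals for counting error, and the dashed line at equal signal. Defb19 at 4.95% lies among the markers, which run from 2.56% to 14.8%, and Defb36 at 62.5% lies above them.

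Defb42, on chromosome 14 and in rat one of a group of epididymal defensins that act on sperm motility, was the third member at 1 SPM or more in a somatic library. It had 0.439 SPM in the male and 0.0591 in the female germ cells, and 1.97 in the male and 0.876 in the female somatic cells. It was the one member above 3 fragments in male germ, male somatic and female somatic cells other than Defb19. The ratio of male over female germ cells was 7.42-fold on 1 female fragment (1.12 to 324). The ratio of male over female somatic cells was 2.25-fold (1.28 to 4.07) and did not reach the 4-fold rule used for size. Male germ cells held 22.3% of the male somatic signal, a ratio of 0.223 with an interval of 0.107 to 0.453.

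Among genes at 1 SPM or more in either library, a difference of size was taken as 4-fold or more, with no replicate behind it. Between male and female germ cells all 3 defensins that could be judged (Defb19, Defb36, Defb20) were higher in male germ cells and 0 lower, where over all rows 18.6% were higher and 9.61% lower. Between male and female somatic cells, 2 of 3 (Defb19, Defb36) were higher in male cells and 0 lower, against 4.28% and 4.32% of all rows. Between male germ and male somatic cells 1 of 4 was higher in germ cells (Defb20) and 2 lower (Defb19, Defb42), against 16.5% and 17.9%. Between female germ and female somatic cells only Defb19 reached 1 SPM, and it was lower in germ cells, as were 24.8% of all rows, with 14.3% higher. With so few members at 1 SPM these counts describe single genes more than the family.

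Germ against somatic cells was compared with 2 libraries a side, 1 of each sex. The main fit has no term for sex, so differences between the sexes count as spread in it. Only Defb19 and Defb36 passed the filter of 1 SPM in 2 libraries. Germ minus somatic for Defb19 was -4.03 ± 1.901 (SE) on the log2(SPM + 0.5) scale, and limma with Benjamini-Hochberg adjustment gave it an adjusted p of 0.222. For Defb36 the difference was -0.31 ± 1.76 with adjusted p = 0.922 by limma. No defensin was called, and 0 had an unadjusted p under 0.05, where over all rows tested 8.06% were called, 5.56% were called lower in germ cells, and 31.4% had an unadjusted p under 0.05. With sex as a term in the limma fit Defb19 was called lower in germ cells (adjusted p = 0.00332), and without the female somatic library the difference was -6.18 (limma adjusted p = 0.0253). Those fits called 21.6% and 2.96% of all rows tested, and over all alternatives run the limma adjusted p of Defb19 lay between 0.00332 and 0.688. Separate animals are not stated for the libraries, and these p-values cover the spread between libraries alone.

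Several beta-defensins had weak signal in male germ cells and none elsewhere. Defb26, in rat one of the sperm-motility group, had 0.585 SPM in male germ cells, on 15 fragments, and 0 in the other 3 libraries. Defb1, the constitutive epithelial beta-defensin known from kidney, had 0.521 SPM on 14 fragments in male germ cells and 0 in the rest. Defb4, an inducible defensin of airway epithelium, and Defb29 each had 0.210 SPM in male germ cells alone. Defb28 had 0.155 SPM there, and Defb15, Defb30 and Defb35 had 0.146 SPM each, which is 4 fragments. These 8 genes were at 3 fragments or more in male germ cells and listed at 0 in the other libraries. Against 3 fragments in the female library, Defb26 was 3.26-fold higher in male than female germ cells, with a lower interval limit of 2.27. Defb1 was 2.91-fold higher, with a lower limit of 2.09. Defb4 and Defb29 were each 1.17-fold higher on 6 fragments, with a lower limit of 0.744, so the interval includes no difference. For Defb15, Defb28, Defb30 and Defb35 the male value itself was below 3 fragments' worth in the female library. A difference between male and female germ cells was therefore not detectable at this depth in Defb4, Defb29, Defb15, Defb28, Defb30 or Defb35.

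Defb20 belongs beside them, with 1.10 SPM in the male and 0 in the female germ cells, and 0 in the male and 0.0292 in the female somatic cells. Against 3 fragments in the empty library, Defb20 was 6.12-fold higher in male than female germ cells, with a lower interval limit of 4.66. It was 6.07-fold higher in male germ than male somatic cells, with a lower limit of 4.62. Defb23 had 0.311 SPM in the male and 0.0197 in the female germ cells, and 0 in the male and 0.156 in the female somatic cells, on 8 fragments in the highest library. In all, 10 of the 16 genes were highest in male and 0 in female germ cells, while 3 (Defb19, Defb36, Defb42) were highest in male and 3 (Defb7, Defb37, Defb39) in female somatic cells, where over all rows with signal the shares were 31.5%, 27.6%, 20.9% and 20%. Alone at 3 fragments or more were 9 members in the male and 0 in the female germ cells, and 0 in the male and 2 in the female somatic cells, against 5.89%, 0.626%, 0.345% and 0.552% of all rows. Of the 3115 rows in the defensins' length range, 313, 49, 19 and 46 were alone there, in the same order. Among rows of that range with signal, 36.7%, 31.4%, 18.4% and 13.4% were highest in these libraries. A row at 3 fragments in male germ cells alone enters these counts through that library, where 3 fragments are worth the least SPM. The counts of genes highest there thus follow in part from the filter. The male germ library also had the fewest rows at 0 of all 4, and 36.3% of its low values lay on the fragment spacing, against 54.3% in female germ cells and 50.9% and 49.2% in male and female somatic cells. Of the whole numbers in that range 23.3% lie on the spacing in the male and 15% in the female germ cells, and 16.7% and 23.3% in male and female somatic cells, so the shares are not directly comparable. The part of either in these weak values was not tested.

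Defb7, Defb37 and Defb39 were highest in female somatic cells. Defb7 was at 0.866 SPM on 22 fragments in female somatic cells and was listed at 0 in male germ, female germ and male somatic cells. Against 3 fragments in the empty library, Defb7 was 4.79-fold lower in male than female somatic cells, with a lower interval limit of 3.64. It was 4.83-fold lower in female germ than female somatic cells, with a lower limit of 3.67. Both limits lie below the 4-fold of the size rule, and Defb7 stayed under the 1 SPM of that rule. Defb37, in mice an epididymal gene, had 0.0183 SPM in male germ cells and 0.185 in female somatic cells, with 0 in the other pair of libraries. Defb39 had 0.137 SPM in the male and 0.00986 in the female germ cells, and 0 in the male and 0.204 in the female somatic cells. Both rest on 5 fragments in female somatic cells. Defb39 also had 4 fragments in male germ cells, too few to rank that pair of libraries for this gene.

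The members listed below 3 fragments were Defb48, Defb25, Defb46, Defb3, Defb5, Defb45, Defa23 and Defa-rs7, highest at 0.101 SPM in male germ cells (Defb48), and Defb8 in female somatic cells at 0.0681 SPM. Defb25 was the one of them with more in male somatic cells (0.108 SPM) than in male germ cells (0.0457). Listed at 0 everywhere were Defb2 and Defb14, epithelial defensins, Defb14 being the mouse counterpart of a skin defensin of humans, and the male-tract genes Defb18, Defb22 and Defb41. Defb22 is a component of the sperm coat.

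Alpha-defensins had almost no signal. Of the 14, 12 were at 0 in every library, among them Defa3, Defa5, Defa17, Defa20, Defa21, Defa22, Defa24, Defa25 and Defa26. Defa23 and Defa-rs7 were each listed at 0.0731 SPM in male germ cells, about 2 fragments, but their rows cover nearly the same interval and share all 4 values, so this can be the same fragments listed under both names. Some alpha-defensins share long sequence: 9 of the 10 matched in GENCODE M21 share at least one stretch of 100 bases with another gene's transcripts, against 2 of 41 beta-defensins (Defb2 and Defb11). The share of such stretches ran from 0% for Defa24 and 1.10% for Defa26 to 99.7% for Defa20. Reads from shared stretches cannot be assigned to a single gene, so a 0 for such an alpha-defensin is uncertain where the authors' counting dropped shared reads. None of the 16 genes with signal shares such a stretch. The 4 markers of Paneth cells, the usual source of alpha-defensins (Lyz1, Ang4, Mmp7, Itln1), summed to 5.95 SPM in male germ cells, nearly all of it Itln1 at 5.54, and to 0, 2.52 and 0.739 in female germ, male somatic and female somatic cells.

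By position the 55 genes fell into 5 clusters (mm9), with a gap of over 500 kb between neighbours starting a new cluster. The chromosome 2 cluster runs from 152284790 to 152448789 and holds 11 beta-defensins from Defb23 to Defb25 with no other row between them. It carried most of the family's signal, with 16.6 SPM in the male and 0.197 in the female germ cells, and 193.9 in the male and 9.11 in the female somatic cells. Of its 11 genes 7 reached 3 fragments in the male and 1 in the female germ cells, and 2 in the male and 2 in the female somatic cells. Neighbours did not share one pattern: Defb21, whose row lies 1.14 kb from Defb19, was at 0 in every library, and Defb45, between Defb19 and Defb36, had 0.00914 SPM in male germ cells and 0 elsewhere. Beyond the end of the cluster, 3.95 kb after Defb25, Rem1, a small GTPase gene chosen here after its values were seen, had 2.58 SPM in the male and 0.266 in the female germ cells, and 33.5 in the male and 7.04 in the female somatic cells.

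**Figure D3:**
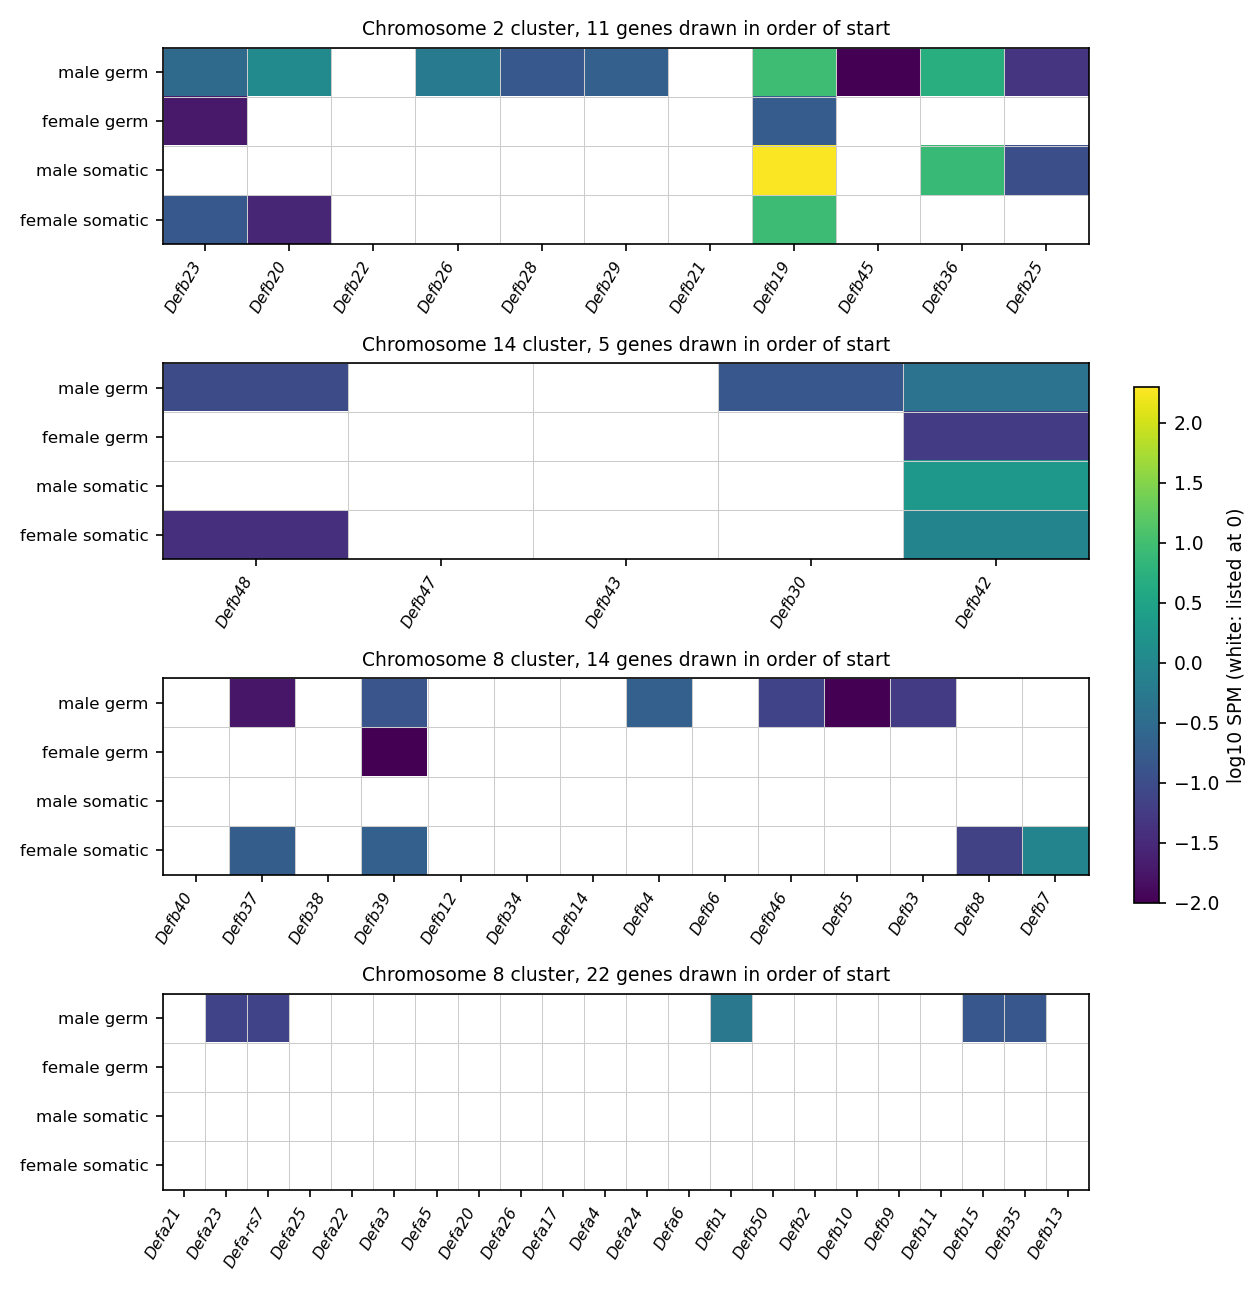
Signal of defensin genes in the 4 larger clusters, genes left to right in order of start and libraries from top to bottom, coloured by log10 SPM with white for genes listed at 0. The chromosome 2 cluster carries the strongest values, at Defb19 and Defb36, and the alpha-defensin stretch of the last cluster is white apart from Defa23 and Defa-rs7 in male germ cells.

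The chromosome 14 cluster, from 63596360 to 63667443, holds 5 beta-defensins and summed to 0.686 SPM in the male and 0.0591 in the female germ cells, and 1.97 in the male and 0.915 in the female somatic cells, chiefly from Defb42. Chromosome 8 has a pair of clusters. The first, from 18974939 to 19497775 with 14 beta-defensins, summed to 0.503 SPM in the male and 0.00986 in the female germ cells, and 0 in the male and 1.32 in the female somatic cells, Defb7 being the main part of the last. The second, from 22165223 to 23059094, holds all 14 alpha-defensins and 9 beta-defensins. Male mice that lack those 9 beta-defensins are known to have sperm of poor motility. In this cluster signal appeared in male germ cells alone, at 0.960 SPM, and the sums were 0 in female germ, male somatic and female somatic cells, which with no fragment seen allows up to 3 fragments, or 0.179, 0.181 and 0.120 SPM. The chromosome 1 pair (Defb18 and Defb41, 18226553 to 18255219) was at 0 throughout.

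Rows lying inside the clusters without a defensin symbol numbered 16. By a RefSeq gene table (GRCm38.p6, used for names only) 13 of them now carry defensin names, and all 13 were listed at 0 in every library. Spag11b, an epididymal sperm-binding gene with a defensin-like domain inside the first chromosome 8 cluster, had 0.229 SPM in male germ cells and 0.0389 in female somatic cells, with 0 in the other pair of libraries. AY761184 had 0.146 SPM in male germ cells and 0 elsewhere.

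Other families of clustered, tissue-restricted genes give a measure of the weak male germ signal. Vomeronasal receptors (316 rows) reached 3 fragments in 23.1% of rows in the male and 7.28% in the female germ cells, and 3.48% in the male and 6.01% in the female somatic cells. Olfactory receptors (1110 rows) did so in 12.5%, 4.68%, 1.80% and 1.98% of rows in the same order. Beta-defensins did so in 34.1%, 2.44%, 7.32% and 14.6%, and alpha-defensins in 0% of rows in each library. All 3 families with signal were thus most often above 3 fragments in male germ cells, as were all rows together. Of the rows with signal in any library, 63.4% of olfactory and 69.0% of vomeronasal receptors were highest in male germ cells, against 62.5% of the beta-defensins. At 3 fragments or more in male germ cells alone were 105 olfactory, 51 vomeronasal and 9 beta-defensin rows, which enter these shares only through that library. Its floor, 0.113 SPM, was also the lowest, so the shares follow in part from the filter. The olfactory and vomeronasal rows are longer, with median lengths of 946 and 1061 bases against 354 for beta-defensins. These shares were not tested against each other.

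**Figure D4:**
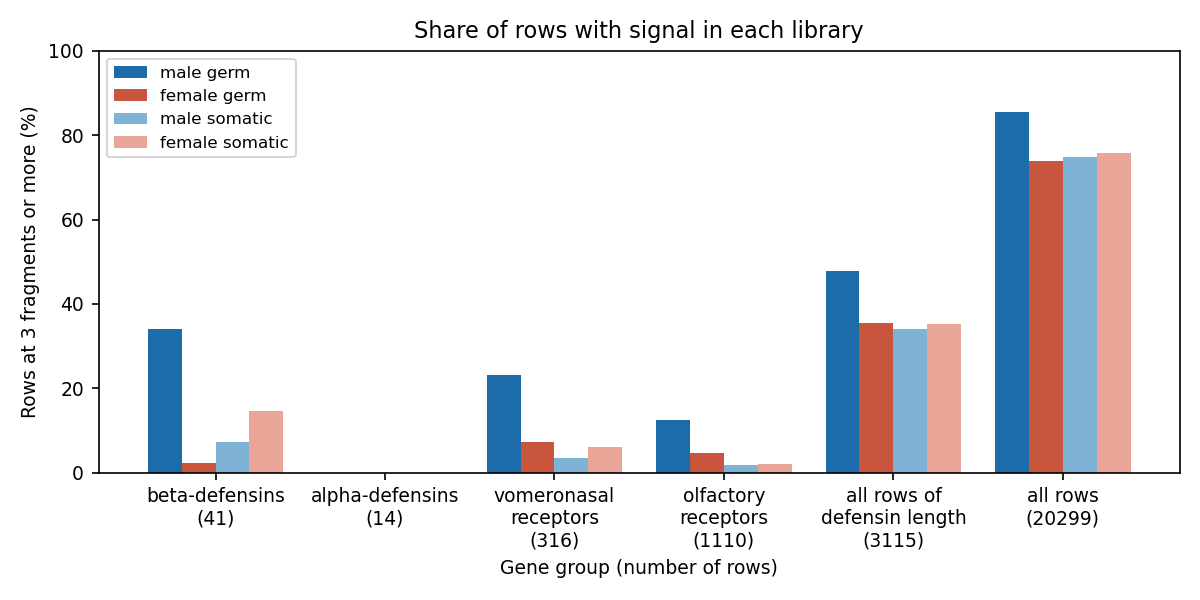
Share of rows at 3 fragments or more in each library, for beta-defensins, alpha-defensins, vomeronasal receptors, olfactory receptors, rows within the defensins' length range and all rows, with the number of rows under each group. The male germ bar is the tallest in every group with signal, at 34.1% for beta-defensins, and the alpha-defensins have no bar.

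Genes that act with defensins differed in level. Of 6 genes for processing enzymes and receptors, limma tested 2 in germ against somatic cells (Tlr4, Ccr2) and called 0, with limma adjusted p of 0.354 and 0.169 and 0 at an unadjusted p under 0.05. Over all rows tested limma called 8.06%, and 31.4% had an unadjusted p under 0.05, so a count of 0 among so few says little. Ccr2, a chemokine receptor, had 0.713 SPM in the male and 0.355 in the female germ cells, and 10.9 in the male and 1.84 in the female somatic cells. Tlr4, a receptor of innate immunity, had 1.32, 0, 2.37 and 1.34 SPM in the same order. Mmp7, the protease that activates mouse alpha-defensins, had 0.229 SPM in male germ cells and 0 in the other libraries. Ccr6, a chemokine receptor that binds beta-defensins, had 0.229 SPM in the male and 0 in the female germ cells, and 0.177 in the male and 0 in the female somatic cells. Mc1r, the melanocortin receptor bound by a dog beta-defensin, had 0.229, 0, 0 and 0.204 SPM in the same order, and Prss2 stayed under 3 fragments.

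Antimicrobial proteins of other families were summarised beside the defensins. Of 12 on the list limma tested 6, and 4 fell in germ relative to somatic cells (Lyz2, S100a8, S100a9 and Ltf), with 0 higher. Their log2 differences were -5.07, -5.28, -5.18 and -5.10 in that order, with limma adjusted p of 0.0445, 0.0358, 0.0386 and 0.0359. Over all rows tested 5.56% were called lower, and without the filter on low values limma called 0 rows, so these 4 calls are lost there. The median of the 6 was -5.08, against -0.11 over all rows tested. Summed over the list the signal was 9.77 SPM in the male and 3.12 in the female germ cells, and 256 in the male and 76.7 in the female somatic cells. Camp, the cathelicidin, had 0.137 SPM in the male and 0 in the female germ cells, and 22.4 in the male and 3.66 in the female somatic cells (adjusted p = 0.0643 by limma). Neutrophil markers, several of which are on both lists, summed to 2.14, 1.03, 174.6 and 64.6 SPM in the same order, with 7 of 8 listed and none of the 7 at 0 in either somatic library. The part of blood cells in these values was not tested.

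Epididymal and sperm-coat genes, which many beta-defensins accompany in the adult, were mostly low. Of 15, limma tested 2 and called 1 lower and 0 higher in germ cells. Over all rows tested 5.56% were called lower. Cst8 differed by -4.41 (log2, limma adjusted p = 0.0429), a call lost without the filter on low values, and Wfdc2 by 1.45 (limma adjusted p = 0.338). Crisp1, Crisp4, Lcn5, Lcn8 and Lcn9 were listed at 0 in male germ cells. Adam7, a sperm surface protein made in the epididymis, had 2.33 SPM in the male and 0 in the female germ cells, and 0.236 in the male and 0 in the female somatic cells. Markers of the mesonephric duct, from which the epididymis forms, summed to 12.9 SPM in the male and 5.21 in the female germ cells, and 12.1 in the male and 78.5 in the female somatic cells. Of the last, 65.5 SPM was Emx2, and Pax2 was under 3 fragments there. That sum was highest in female somatic cells, as were Defb7, Defb37 and Defb39, but the single markers were divided. Emx2, Gata3 and Cdh16 were highest in female somatic cells, and Pax2, Pax8 and Lhx1 in male germ cells. The part of duct cells in the values of those 3 defensins was not tested. Keratinocyte markers summed to 7.62, 6.82, 11.2 and 12.2 SPM in the same order and macrophage markers to 9.08, 2.36, 38.2 and 18.6 SPM.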

How the data were processed

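RNA was measured in 4 sorted fractions with 1 library each, paired-end with reads of 100 bases after ribosomal RNA depletion, per the labels' protocols. CASAVA 1.9, TopHat 1.2.0, edgeR and mm9 are listed without a role per the submitters' processing notes. How reads were assigned to genes, with which annotation and whether by strand, are points not given in the sources used here, so overlapping and antisense genes are uncertain. The deposited value per gene is a signal scaled by the authors: whole numbers whose library totals lie between 99.3 and 107.5 M, with part of the low values (36.3%, 54.3%, 50.9% and 49.2% of those up to 60) at multiples of 4.13, 6.07, 6.13 and 4.12, and of which 11 from 1 to 60 never occur in female germ and male somatic cells. It is not a raw count, so limma took the place of a count test.

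Repeated rows were dropped (74, none a defensin), leaving 20299. Totals were scaled by trimmed-mean-of-M factors (1.07, 0.956, 0.945 and 1.03). limma 3.58.1 (under R 4.3.3, its mean-variance trend on) compared germ with somatic cells on log2(SPM + 0.5) over rows at 1 SPM or more in 2 libraries, with a threshold of 0.05 after Benjamini-Hochberg adjustment. This scale understates changes of low genes. Comparisons of 1 library with 1 have no replicate check. Their ratios carry exact conditional binomial 95% intervals, and values at 0 were set at 3 fragments. Intervals and floors cover counting error only, since fragment numbers are estimates and PCR copies cannot be told apart. The methods were tested on simulated data. Values of some genes are not reported here.

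Members were named by rule: those at 1 SPM in any library, those past the size rule, and a list of epithelial, male-tract and alpha-defensins. Other members are named because their counts are small. Members and lists were chosen with earlier results of these data known. Alternatives were other scalings, filters, pseudocounts, floors, size limits and left-out libraries, and sex as a term.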

Additional observations from a re-analysis of the deposited data

Results flagged for a closer look

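Defb23 and Defb39 had listed values whose sex differences ran in opposite directions in germ and somatic cells. For Defb23, male minus female was 0.291 SPM in germ cells and -0.156 SPM in somatic cells. For Defb39 it was 0.127 SPM in germ cells and -0.204 SPM in somatic cells. Each value rests on 8 fragments or fewer in 1 library a group, and the difference between germ and somatic cells was not tested. For Defb39 the counting interval of male over female included 1 in germ cells (lower limit 0.417) and in somatic cells (upper limit 1.64). For Defb23 it included 1 in somatic cells (upper limit 2.28) but not in germ cells (lower limit 1.08). The opposite directions are therefore not beyond counting error.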

How the results depend on the processing

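Of the results that answer a comparison, 49 alternatives left a count within 1.5 times or a sum within its counting interval, and 15 moved it past that. The count of defensins called by limma in germ against somatic cells, 0, became 1 (Defb19) with sex as a term, and was 0 to 1 when each library was left out, 1 without female somatic cells. Defb36, at -0.31, was at 1.41 without female germ cells (limma adjusted p 0.633) and -2.35 without female somatic cells, with no call. Counting any value above 0 gave 23 members in male germ and 4 in female germ cells, where of all 20299 rows 18357 and 15692 were above 0. A floor of 10 fragments gave 6 in male germ, 0 in female germ and 3 in female somatic cells, and left 3 of 7 highest in male germ cells. At 5 SPM, 1 defensin was higher in male than female germ cells. The counts at 10 fragments and at 5 SPM have no share over all rows beside them. The summed signal moved to 21.8 SPM in male germ and 183.0 SPM in male somatic cells with upper quartile scaling, to 185.2 SPM in male somatic cells with totals alone, and to 9.54, 10.03 and 2.42 SPM in male germ, male somatic and female somatic cells without Defb19. Upper quartile scaling moved the median of all rows in limma to 0.04, against -0.11, and kept the direction of Defb19 and Defb36. With no filter limma called 0 of 18703 rows, 0 of them defensins. The 5 clusters held at gaps of 1000 and 200 kb. The cause of these shifts was not tested, beyond fewer or more rows and libraries entering each. Each group has 1 library, so no replicate numbers pair the samples, and the only pairing available is by sex. The fit with sex as a term sets germ against somatic cells within each sex. Depth limits every member under about 10 fragments.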
